A study of Homo sapiens with 22 samples.

Results

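The 500 widest RAD21 peaks of untreated hTERT RPE-1 cells were described. They were chosen by width from the RAD21 peak list of clone A2 in DMSO, among the peaks that overlapped a RAD21 peak of clone D7 in DMSO by at least 1 bp. That list held 39713 peaks, of which 31980 overlapped a clone D7 peak, and the 500 widest of these were the members. RAD21 is the kleisin subunit of cohesin, and hTERT RPE-1 is a human retinal pigment epithelial cell line immortalised with telomerase. The study measured chromatin immunoprecipitation followed by sequencing (ChIP-seq) in 22 samples: 12 immunoprecipitations, each with its peak list, and 10 inputs. Both clones carry a degron on NIPBL, which lets the small molecule dTAGV-1 trigger breakdown of the protein. Clone A2 has the genotype mCherry-P2A-FKBP12(F36V)-NIPBL and clone D7 has mGreenLantern-P2A-FKBP12(F36V)-NIPBL, and each is 1 clone. RAD21 was precipitated in each clone after DMSO for 24 h, after dTAGV-1 for 4 h and after dTAGV-1 for 24 h. PDS5A was precipitated from clone D7 in DMSO, STAG1 and STAG2 from clone D7 with no treatment named, and HA from clone A2 with no treatment named. Wild-type cells, which carry no degron, gave the CTCF and WAPL libraries. Cells were cycling and not synchronised. Each group held 1 library. The clones differ in genotype and were kept apart, each treated library being set against DMSO of its own clone, and no p-value was computed. Percentages carry 95% Wilson intervals and differences between percentages carry 95% Newcombe intervals. Both cover counting error only, since peaks of 1 list are not replicates.

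Cohesin is a ring-shaped complex that holds DNA and extrudes it into loops. NIPBL activates its ATPase and supports its loading and movement. CTCF, a zinc-finger protein bound to DNA, halts extruding cohesin, so narrow RAD21 peaks commonly mark single CTCF sites. STAG1 and STAG2 are alternative cohesin subunits, PDS5A binds the ring and regulates how long it stays on DNA, and WAPL releases it. A RAD21 peak much wider than a single site has cohesin signal spread over neighbouring DNA, which is known at active promoters and enhancers, where NIPBL also binds.

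Promoter windows show what DNA lay under members, in places with and without CTCF. The windows are RefSeq sequences of GRCh38.p14 that run from 250 bases before a gene start to 50 bases after it, written 5′ to 3′ on the gene's strand. Capitals mark a match to the CTCF core consensus, searched on both strands. The first 3 belong to the widest member (BCL6, chr3:187745419-187745718, minus strand), to the fifth widest (CDK6, chr7:92833910-92834209, minus strand) and to the widest member with no CTCF peak (FOXP1, chr3:71583679-71583978, minus strand). CEBPB (chr20:50190333-50190632, plus strand) and PMP22 (chr17:15260771-15261070, minus strand) are members whose window held both a match and a CTCF summit, and were chosen after their values were seen.
BCL6: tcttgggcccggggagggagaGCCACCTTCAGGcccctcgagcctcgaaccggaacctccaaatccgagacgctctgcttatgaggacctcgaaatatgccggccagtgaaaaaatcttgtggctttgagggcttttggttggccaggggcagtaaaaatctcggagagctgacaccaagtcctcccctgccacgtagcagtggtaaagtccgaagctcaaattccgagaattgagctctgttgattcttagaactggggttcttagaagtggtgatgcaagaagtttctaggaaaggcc
CDK6: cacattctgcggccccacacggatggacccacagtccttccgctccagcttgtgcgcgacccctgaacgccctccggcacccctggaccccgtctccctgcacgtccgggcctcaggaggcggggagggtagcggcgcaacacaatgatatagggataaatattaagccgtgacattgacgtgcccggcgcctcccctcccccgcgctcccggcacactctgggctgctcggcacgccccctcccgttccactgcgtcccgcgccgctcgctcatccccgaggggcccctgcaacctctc
FOXP1: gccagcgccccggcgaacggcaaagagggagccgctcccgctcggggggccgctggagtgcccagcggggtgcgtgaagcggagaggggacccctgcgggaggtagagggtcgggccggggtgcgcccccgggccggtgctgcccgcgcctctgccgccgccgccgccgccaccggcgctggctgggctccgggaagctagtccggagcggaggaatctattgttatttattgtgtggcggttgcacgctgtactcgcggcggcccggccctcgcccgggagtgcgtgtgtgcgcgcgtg
CEBPB: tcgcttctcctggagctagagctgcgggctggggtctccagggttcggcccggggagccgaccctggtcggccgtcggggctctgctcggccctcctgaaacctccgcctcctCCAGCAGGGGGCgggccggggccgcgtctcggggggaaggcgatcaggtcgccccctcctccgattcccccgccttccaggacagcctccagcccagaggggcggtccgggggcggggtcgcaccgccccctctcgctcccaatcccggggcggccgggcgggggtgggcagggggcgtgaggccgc
PMP22: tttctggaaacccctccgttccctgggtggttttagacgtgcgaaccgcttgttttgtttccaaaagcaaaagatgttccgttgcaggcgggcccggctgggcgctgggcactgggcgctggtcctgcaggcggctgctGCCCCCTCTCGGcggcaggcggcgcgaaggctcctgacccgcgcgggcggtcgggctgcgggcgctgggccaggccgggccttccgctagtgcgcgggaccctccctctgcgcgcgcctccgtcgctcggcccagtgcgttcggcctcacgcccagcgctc
In CEBPB the match lay 137 bases before the start, the CTCF summit 139 bases before it and the RAD21 summit 117 bases before it. In PMP22 these distances were 111, 103 and 126 bases. The window of SPRY1, in a member of 3428 bp, met the same rule and is not printed. Its match lay 67 bases before the start and its CTCF summit 154 bases before it, but the RAD21 summit lay 1173 bases after it. The CDK6 and FOXP1 windows held 0 matches and 29 and 41 CpG dinucleotides, and the BCL6 window held 12 CpGs and 1 match with no CTCF summit.

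Such windows were counted over all members. Of 22132 RefSeq promoter windows, 422 windows of 312 genes lay wholly inside a member. A gene can have several windows, so windows are not independent and the intervals given for them may be too narrow. A match to the CTCF core was found in 33 of the 422 (7.82%, 5.62 to 10.8), in 13.5% of the 2087 windows inside other RAD21 peaks and in 4.49% of all windows. A CTCF summit lay in 16.1% of the windows inside members (12.9 to 19.9), in 39.5% of those inside other RAD21 peaks (37.4 to 41.6) and in 9.72% of all. A window that fits wholly inside a narrow peak must lie near its summit, while in a member it can lie far from it, so these shares are not like for like. They were rich in CpG, with a median of 32 CpG dinucleotides and 70.2% G and C, against 30 and 69.0% inside other peaks and 21 and 62.3% over all windows. The letters TATAAA, on either strand, were found in 8.29% of windows inside members (6.02 to 11.3), in 3.5% of those inside other RAD21 peaks (2.79 to 4.38) and in 9.46% of all.

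Widths that made the choice are given as a description. Members were 1948 to 7549 bp wide in clone A2 in DMSO, with a median of 2412 bp, and covered 1.349 Mb in all. The other 31480 peaks shared with clone D7 had a median width of 696 bp and reached 1947 bp, and all 500 peaks of clone A2 that were 1948 bp or wider overlapped a clone D7 peak. Just inside the threshold were a 1949 bp peak at GSK3A (chr19:42242284-42244232) and a 1948 bp peak 531180 bp from the nearest protein-coding gene, GPC5 (chr13:90867000-90868947). Just outside were 2 peaks of 1947 bp, at 5649 bp from NKX2-2 (chr20:21504827-21506773) and at 6063 bp from ADAMTS8 (chr11:130434246-130436192). Width and height were different properties of a peak. The median member stood at the 55.2 percentile of fold enrichment in its own list, and the other peaks at 57.8, so the widest peaks were not the highest. The fold is the authors' value for a summit over its local background and only ranks peaks within a list. In clone D7 in DMSO, whose widths chose no member, the widest peak overlapping each member had a median of 2428 bp and a median ratio to the clone A2 width of 0.991.

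The widest member lay on BCL6, which encodes a transcriptional repressor, at chr3:187738557-187746105. Counting the widest peak of each list, its clone A2 width was 7549 bp with DMSO, 917 bp after 4 h of dTAGV-1 and 2788 bp after 24 h. In clone D7 it was 6062, 4913 and 1874 bp. The second, at chr4:30715824-30722393, lay on PCDH7, a protocadherin gene, and on LOC124900844. Its width was 6570 bp in clone A2 in DMSO and 990 bp at 4 h, with no peak at 24 h, and 3857, 3639 and 818 bp in clone D7. The MYC member, at the gene of a growth-promoting transcription factor (chr8:127733722-127739656), was 5935, 756 and 2046 bp wide in clone A2 and 7079, 3339 and 1491 bp in clone D7. At CCND1, which encodes cyclin D1 (chr11:69638114-69643916), the widths were 5803, 627 and 1605 bp in clone A2 and 4548, 2908 and 1279 bp in clone D7. At CDK6, the kinase that cyclin D1 activates (chr7:92831736-92837510), they were 5775, 1359 and 1713 bp in clone A2 and 5747, 1795 and 2515 bp in clone D7. These regions also held the widest peaks of other lists: BCL6 the widest CTCF peak (4892 bp) and the widest RAD21 peak of clone D7 at 4 h (4913 bp), MYC the widest STAG1 peak (5838 bp) and the widest RAD21 peak of clone D7 in DMSO (7079 bp), and CCND1 the widest PDS5A peak (9039 bp). In 8 of the other 11 lists the widest peak overlapped a member, the exceptions being clone A2 RAD21 at 4 h, STAG2 and WAPL. In all 5 regions and both clones the treated peaks were narrower than the DMSO peak, where a treated peak was called.

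**Figure D1:**
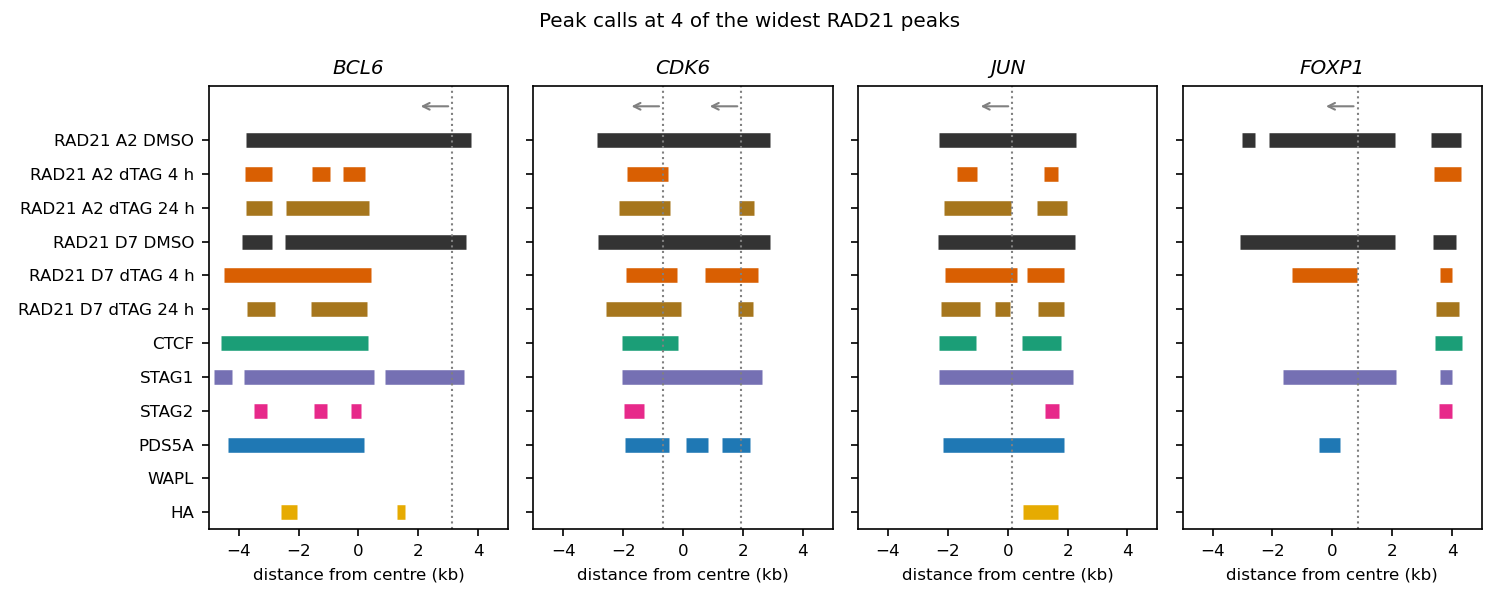
Peak calls (bars) of the 12 lists, 1 row per list, against distance in kb from the centre of the member at BCL6, CDK6, JUN and FOXP1, with dotted lines at listed gene starts and arrows for the direction of transcription. The DMSO RAD21 bars cover most of each member and the STAG2 bars, where called, are short; at BCL6 the CTCF bar (4892 bp) and the clone D7 RAD21 bar at 4 h (4913 bp) are longer than the longest STAG1 bar (4329 bp), and the FOXP1 member has no CTCF bar within it.

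CTCF lay in most members, and often more than once. Of the 500, 450 overlapped at least 1 CTCF peak (90%, 87.1 to 92.3), which was near the 89.6% of the other peaks; the difference was 0.381 points (-2.58 to 2.74). In a window of 500 bp either side of the RAD21 summit, chosen after seeing the data, the order turned, with 85.0% of members and 89.7% of other peaks. Against CTCF peaks at or above the median fold of their list it turned too, with 58.8% and 74.7%. By number, 50 members held 0 CTCF peaks, 293 held 1, 139 held 2 and 18 held 3. Holding 2 or more was the case for 31.4% of members (27.5 to 35.6), for 7.2% of the 500 next in width and for 0.219% of other peaks. A wider interval has more room for a second peak, and within the window around the summit the shares were 1.0% and 0.0731%. The 3 widest members with 3 CTCF peaks were those at PCDH7, MYC and CCND1. Where a member held CTCF, CTCF peaks covered a median of 52.8% of its width.

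The RAD21 summit lay beside CTCF in most members. In the 450 members with CTCF, the summit of the RAD21 peak in clone A2 in DMSO lay a median of 35 bp from the nearest CTCF summit, and within 200 bp in 77.8% (73.7 to 81.4). In the treated lists the median was 29 bp and 31 bp in clone A2 and 35 bp and 34 bp in clone D7, at 4 h and 24 h. Over the 283 members with CTCF that had a peak in all 6 RAD21 lists, the medians ran from 26 to 30 bp.

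The other cohesin proteins divided into broad and narrow ones at these regions. A STAG1 peak overlapped 499 of the 500 members (99.8%, 98.9 to 100), against 74.6% of other peaks, a difference of 25.2 points (24.1 to 25.7). A PDS5A peak overlapped 472 (94.4%, 92.0 to 96.1), against 60.7%, a difference of 33.7 points (31.3 to 35.5). A STAG2 peak overlapped 274 (54.8%, 50.4 to 59.1), against 56.8%, a difference of -2.02 points (-6.43 to 2.33). STAG1 and PDS5A thus overlapped members more often than other peaks, and for STAG2 the interval of the difference included 0. With STAG2 peaks at −log10 q of 10 or more, the shares were 46.6% of members (42.3 to 51.0) and 54.2% of other peaks. The 500 peaks next in width stood close to the members, at 98.2% for STAG1, 87.4% for PDS5A and 51.0% for STAG2.

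The extent of the peaks differed more than their presence. STAG1 peaks at members had a median width of 2180 bp, against 732 bp at other peaks, and covered a median of 89.2% of a member. PDS5A peaks were 1396 bp wide, against 784 bp, and covered 57.2%. STAG2 peaks were 584.5 bp wide at members and 556 bp at other peaks, and covered 12.3% of a member over all 500 and 23.5% where a STAG2 peak was called, against 71.2% where one was called at other peaks. At the BCL6 member the widest STAG1 peak was 4329 bp and the widest of 3 STAG2 peaks was 434 bp. At the MYC member these widths were 5838 and 426 bp. The background pileup of a library, a measure that scales with its depth, stood at 1.77 in STAG1, at 3.14 in STAG2 and at 2.76 in PDS5A, so the list with the widest peaks had the lowest background, and the part of antibody and depth was not tested.

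WAPL and HA marked few members. A WAPL peak overlapped 40 (8.0%, 5.93 to 10.7), near the 8.21% of other peaks, while it overlapped 70.0% of the 500 peaks with the highest fold outside the members. The HA list held 230 peaks, and its peak names carry the label HA-NIPBL. HA peaks overlapped 33 members (6.6%, 4.74 to 9.12), against 0.559% of other peaks, a difference of 6.04 points (4.18 to 8.57). They overlapped 2.6% of the 500 next in width, a difference of 4.0 points (1.41 to 6.74), and 3.0% of the 500 of highest fold. With HA peaks at −log10 q of 10 or more, the shares were 2.4% of members and 0.178% of other peaks. The 38 HA peaks inside members were 16.5% of the HA list. The JUN member held 1 HA peak of 1179 bp, the MYC member 1 of 245 bp and the BCL6 member 2, the wider of 531 bp. In a list this short, no HA peak at a member says only that none was called.

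**Figure D2:**
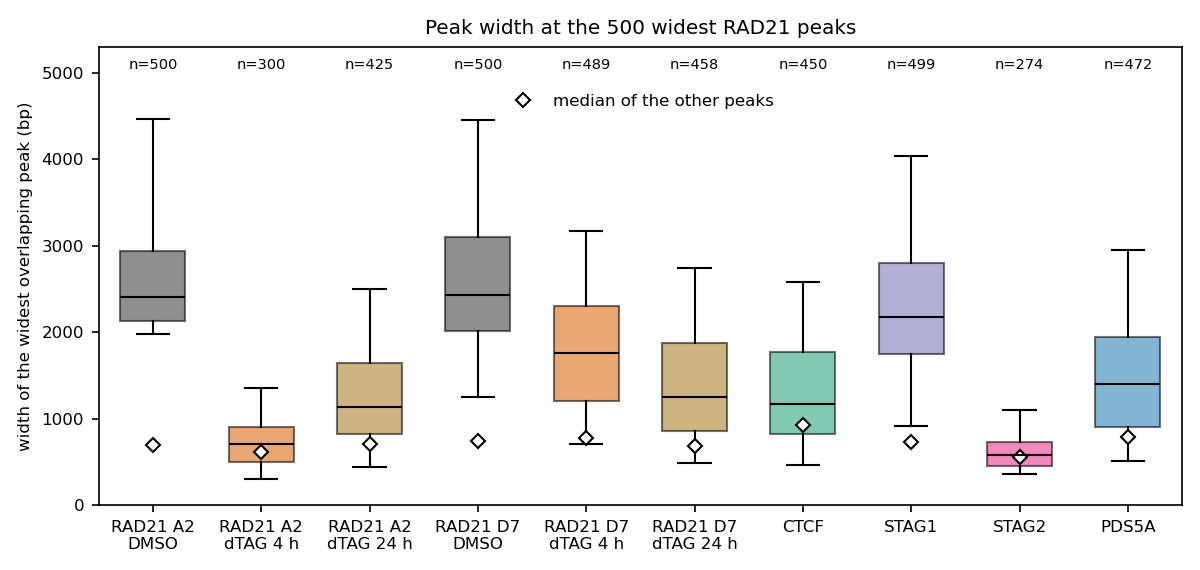
Width in bp of the widest overlapping peak at the 500 members in 10 lists, as boxes of the quartiles with the median line and whiskers from the 5th to the 95th percentile; n is the number of members with a peak, and diamonds give the median over the other 31480 peaks. STAG1 (2180 bp) comes close to RAD21 in DMSO (2412 and 2428 bp), while STAG2 (584.5 bp) and clone A2 RAD21 at 4 h (704.5 bp) come close to the diamonds.

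Most members still had a RAD21 peak after dTAGV-1. In clone D7, 489 of 500 overlapped a peak at 4 h (97.8%, 96.1 to 98.8) and 458 at 24 h (91.6%, 88.8 to 93.7). Among all 31980 peaks shared by the untreated clones, 13.6% had no clone D7 peak at 4 h and 22.4% had none at 24 h, and members exceeded the other peaks in presence by 11.6 points (9.88 to 12.7) and 14.3 points (11.5 to 16.4). In clone A2, 300 members overlapped a peak at 4 h (60%, 55.7 to 64.2) and 425 at 24 h (85.0%, 81.6 to 87.9). Over all shared peaks 31.2% had no clone A2 peak at 4 h and 24.9% had none at 24 h. Presence at members differed from that at other peaks by -8.97 points (-13.4 to -4.74) at 4 h and by 10.1 points (6.65 to 13.0) at 24 h, so members were behind the other peaks in 1 list and ahead in the other 3. The lead at 24 h depended on the peak threshold. With treated peaks at −log10 q of 10 or more, presence at 24 h was 71.2% of members and 68.5% of other peaks in clone A2. In clone D7 it was 73.6% and 70.4%. From the 500 peaks next in width, members differed by -0.8 points (-6.84 to 5.25) and 2.4 points (-2.18 to 6.97) in clone A2 and by 1.4 points (-0.744 to 3.64) and 1.8 points (-1.83 to 5.45) in clone D7, at 4 h and 24 h, and all 4 intervals include 0. The background pileup of the RAD21 libraries, in the order DMSO, 4 h and 24 h, was 1.87, 3.16 and 2.83 for clone A2 and 3.00, 4.05 and 3.07 for clone D7. The part of depth in these shares was not tested.

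A total of 290 members were present in all 4 treated lists (58.0%, 53.6 to 62.3), near the 59.3% of other peaks, and 6 were present in none (1.2%), against 6.67% of other peaks. The 6 lay at AHDC1 (chr1:27602122-27604550), at QKI and LOC124901234 (chr6:163412525-163414874), at PAPPA (chr9:116153471-116155666), at SMAD6 (chr15:66702258-66704366), at MAML2 (chr11:96338726-96340712) and at GSK3A. QKI encodes an RNA-binding protein, PAPPA a secreted protease, SMAD6 an inhibitory SMAD of BMP signalling, MAML2 a Notch coactivator and GSK3A a kinase. All 6 had a STAG1 peak, from 608 bp at MAML2 to 3478 bp at SMAD6, and none had a STAG2 peak. Their fold in clone A2 in DMSO stood between the 16.2 and the 34.6 percentile of the list, so all 6 were low peaks.

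Where a peak remained, it was narrower than in DMSO in most members. Clone D7 carries this comparison, since its widths chose no member. Over the 489 members with a peak at 4 h the median width went from 2432 to 1757 bp, with a median ratio of 0.747 (quartiles 0.497 and 0.921). Over the 458 with a peak at 24 h it went from 2434 to 1252 bp, with a median ratio of 0.539 (quartiles 0.337 and 0.815). The ratio was below 1 in 423 of 489 and in 433 of 458. Wider by at least 1.5-fold were 13 members at 4 h (2.66%) and 2 at 24 h (0.437%), against 8.08% and 2.59% of other peaks. A peak was called narrower when it lost at least 1.5-fold of its width: this held for 211 members at 4 h (43.1%, 38.8 to 47.6) and 278 at 24 h (60.7%, 56.2 to 65.1). Over all shared peaks the shares were 9.32% at 4 h and 18.6% at 24 h. Against the other peaks, the difference was 34.4 points (30.1 to 38.9) at 4 h and 42.9 points (38.3 to 47.3) at 24 h. Between the untreated clones, 12.6% of members, 10.4% of the 500 next in width and 3.78% of other peaks were narrower by that measure in clone D7 than in clone A2, a ratio that uses the width that chose the members.

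Median ratios in clone D7 for the 500 peaks next in width were 0.912 at 4 h and 0.742 at 24 h, and for all other peaks 1.00 and 0.881. The 500 peaks of highest fold had ratios of 1.08 and 0.932, and 5.8% of them were narrower at 24 h. Members differed from the 500 next in width by 17.8 points (11.9 to 23.6) at 4 h and 16.6 points (10.1 to 22.9) at 24 h in the share narrower. At like starting widths the order turned. Among peaks 2000 to 3000 bp wide in clone D7 in DMSO, a range chosen after seeing the data, the ratio at 24 h was 0.564 for 234 members and 0.422 for 261 other peaks. The share narrower there was 57.3% of members and 77.0% of other peaks, a difference of -19.8 points (-27.7 to -11.5), and at 4 h it was 39.5% and 54.5%, a difference of -15.0 points (-22.9 to -6.66). Those other peaks had a median width of 1030 bp in clone A2 in DMSO, against 2341 bp for the members, so they were wide in clone D7 alone. The range was set on the clone D7 DMSO width, which is also the width that the ratio divides by. A peak wide in that library alone tends to be narrower in any other. This comparison therefore cannot decide whether the higher share narrower is particular to members.

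**Figure D3:**
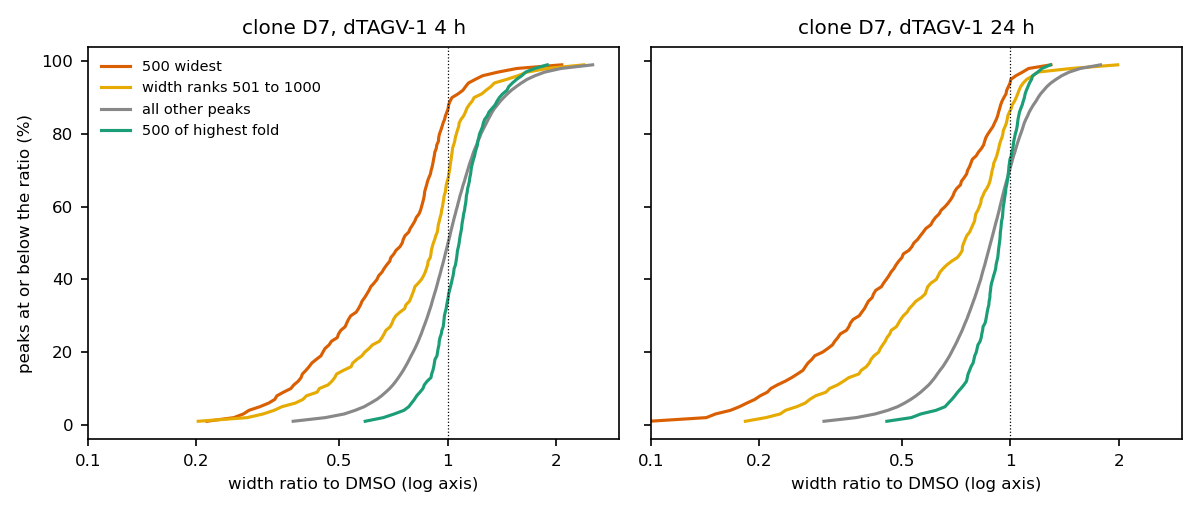
Cumulative share of peaks (%) against the ratio of the clone D7 width after dTAGV-1 to that in DMSO, on a log axis, at 4 h and 24 h, for the members and 3 comparison sets with a peak in both lists. The curve of the members lies to the left of the others over most of its range, with medians of 0.747 and 0.539 against 1.00 and 0.881 for all other peaks; the dotted line marks no change.

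In clone A2 the ratio shares its DMSO width with the choice of members and is given as a description. The median width of the members with a peak was 704.5 bp at 4 h and 1138 bp at 24 h, and the median ratios were 0.262 over 300 members and 0.432 over 425. The ratio was below 1 in 300 of 300 and 416 of 425. Members narrower by at least 1.5-fold were 288 of 300 and 320 of 425, and over all shared peaks 24.6% and 11.6% were. With the 500 members chosen from clone D7 widths instead, the clone A2 ratios were 0.290 and 0.487. The order of the times differed between clones, with clone A2 narrower at 4 h than at 24 h and clone D7 narrower at 24 h than at 4 h. That difference was not tested, as each time and clone had 1 library.

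Some members held several RAD21 peaks. In clone D7, 58 members held 2 or more RAD21 peaks before treatment, 135 after 4 h and 121 after 24 h. In clone A2, where each member is 1 peak in DMSO by its choice, 59 held 2 or more after 4 h and 94 after 24 h. Of the 500 next in width, 4.4% held 2 or more clone D7 peaks before treatment, 6.6% after 4 h and 8.2% after 24 h, against 11.6%, 27.0% and 24.2% of members. Of the other peaks 0.175%, 0.213% and 0.210% did, and a wider interval has more room for a second peak. At the JUN member, clone D7 had 1 peak of 4564 bp with DMSO, 2 peaks after 4 h and 3 after 24 h, beside 2 CTCF peaks.

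The bases that stayed under a RAD21 peak were mostly those under CTCF peaks. Members held 666.8 kb inside CTCF peaks and 682.2 kb outside them. In clone D7 in DMSO, RAD21 peaks covered 95.6% of the bases inside and 85.9% of those outside. At 4 h they covered 84.8% inside and 54.4% outside, and at 24 h 70.4% and 33.5%. In clone A2 they covered 33.9% inside and 3.56% outside at 4 h, and 63.0% and 25.1% at 24 h. In 432 members with bases of both kinds, the covered share at 24 h in clone D7 was higher inside CTCF peaks in 358, higher outside in 46 and equal in 28. RAD21 summits lay beside CTCF summits in most members, so bases under CTCF were also those near the summit. The parts of CTCF and of nearness to the summit were not tested apart. STAG1 covered 91.5% inside and 76.5% outside, PDS5A 72.1% and 39.2%, and STAG2 24.7% and 4.94%. STAG2 thus had, for its low cover, the larger relative gap of the 3 between bases inside and outside.

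**Figure D4:**
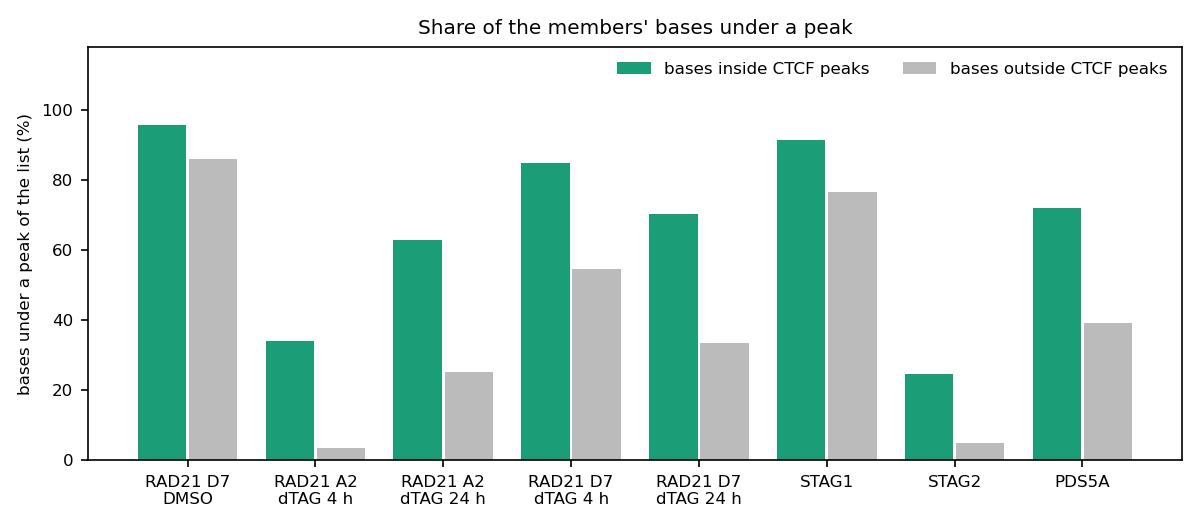
Share of the members' bases (%) under a peak of each list, with green bars for the 666.8 kb inside CTCF peaks and grey bars for the 682.2 kb outside them. The grey bar stands at 85.9% in clone D7 in DMSO and at 33.5% after 24 h of dTAGV-1, and in clone A2 at 4 h it stands at 3.56%; STAG2 shows 24.7% inside and 4.94% outside.

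The 50 members with no CTCF peak were less often present after treatment than the 450 with one. In clone A2 at 4 h a peak was called at 16.0% of those without CTCF and 64.9% of those with it, a difference of 48.9 points (35.6 to 57.7). After 24 h a peak was called at 60% and 87.8%, which differ by 27.8 points (14.9 to 41.9). For clone D7 the calls after 4 h were 88.0% without and 98.9% with CTCF, which differ by 10.9 points (4.34 to 22.7). After 24 h they were 62.0% without and 94.9% with CTCF, which differ by 32.9 points (20.5 to 46.8). STAG2 overlapped 22% of members without CTCF and 58.4% of those with it, STAG1 100% and 99.8%, and PDS5A 84.0% and 95.6%. No WAPL peak lay in the 50, which allows up to 7.14% (Wilson). Members without CTCF were also the lower peaks, at a median fold percentile of 31.0 in clone A2 in DMSO, against 61.2, and the part of height in their loss was not tested.

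By number of CTCF peaks, the clone D7 width ratio at 24 h was 0.412 with 0, 0.619 with 1, 0.495 with 2 and 0.291 with 3, over 31, 278, 131 and 18 members. The members with 3 were also the widest, with a median of 4216 bp in clone A2 in DMSO, against 2450, 2295 and 2809 bp with 0, 1 and 2. The widest members without CTCF lay at FOXP1 (chr3:71580777-71584984), RAP2B (chr3:153160212-153164005) and TRERF1 with LOC124900214 (chr6:42449941-42453675). FOXP1 encodes a forkhead transcription factor, RAP2B a small GTPase and TRERF1 a zinc-finger transcriptional regulator. FOXP1 was 4208 bp wide in clone A2 in DMSO with no peak at 4 h or 24 h, while in clone D7 it was 5195 bp in DMSO, 2195 bp after 4 h and absent after 24 h. RAP2B kept more of its width, with 4098, 3914 and 3051 bp in clone D7 and 3794, 391 and 2119 bp in clone A2. TRERF1 had 4127, 1991 and 1121 bp in clone D7, and 3735 bp, no peak and 1100 bp in clone A2. All 3 had a STAG1 peak of 3397 to 3877 bp and no STAG2 peak.

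The lowest clone D7 ratios at 24 h were at ZMIZ1, SMAD7 and VIM. ZMIZ1 encodes a transcriptional coactivator (chr10:79066254-79071761), and its clone D7 widths were 5497 bp in DMSO, 3092 bp at 4 h and 328 bp at 24 h, a ratio of 0.0597. SMAD7, an inhibitor of TGF-beta signalling (chr18:48948509-48953005), had 5889, 1728 and 445 bp, a ratio of 0.0756. VIM, the gene of the intermediate filament vimentin (chr10:17227167-17230953), had 4274, 1639 and 357 bp, a ratio of 0.0835. All 3 had 2 CTCF peaks, no STAG2 peak and no clone A2 peak at 4 h. The highest ratios were at CADPS2, a gene of vesicle exocytosis (chr7:122885642-122887878), at the chromosome 13 region far from genes given above, and at ITGA6, which encodes integrin alpha-6 (chr2:172427325-172429561). Their ratios were 4.52, 2.04 and 1.49. The clone D7 DMSO peak was narrow in the first 2, at 444 and 994 bp, and 1575 bp at ITGA6, against 2237, 1948 and 2237 bp in clone A2, so the clones differed there before treatment.

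Members lay at genes, and above all at their starts. Of 500, 446 overlapped a protein-coding gene, with 471 distinct genes, and 23 lay more than 50 kb from one. The summit was within 1 kb of either end of a protein-coding gene in 249 (49.8%, 45.4 to 54.2), against 14.5% of other peaks, a difference of 35.3 points (30.9 to 39.7). The 500 peaks next in width had 47.0%, a difference of 2.8 points (-3.38 to 8.95), and the 500 peaks of highest fold had 9.2%. A listed gene start lay inside 310 of the 472 members on the chromosomes that the promoter table covers (65.7%, 61.3 to 69.8), against 8.71% of other peaks and 51.6% of the 500 next in width. A longer interval holds a start more often, while the share with a start within 1 kb of the summit does not use the width. That share was 50.6% of members and 12.4% of other peaks. For the 500 next in width it was 48.2%, from which members differed by 2.42 points (-3.93 to 8.74). The summit lay inside a protein-coding gene in 60.8% of members, 59.4% of the 500 next in width and 48.9% of other peaks. Exons and introns were not analysed here. Members were on 23 chromosomes, from 4 on X to 45 on chromosome 2, and 6 pairs of neighbours lay within 10 kb of each other.

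Measured from the most upstream listed start inside the member, the wide peaks reached further into the gene than away from it. Where a gene had several listed starts inside, the others counted as downstream, which favours the downstream side. The part of this choice was not tested, and peaks outside the members were not profiled. In 297 members with exactly 1 gene starting inside, the peak extended a median of 803 bp upstream of the start (quartiles 471 and 1256) and 1744 bp downstream (quartiles 1358 and 2105), and 226 (76.1%, 70.9 to 80.6) had more of their width downstream. At 1 kb upstream of the start 42.4% of these members lay under the clone A2 DMSO peak, and at 1 kb downstream 87.5%. The clone D7 shares were 43.8% and 86.5% with DMSO, at 4 h 32.3% and 64.3%, and at 24 h 22.9% and 46.1%. STAG1 showed 36.7% and 79.1%, PDS5A 21.2% and 48.1%, and CTCF 28.3% and 39.7%. STAG2 had 9.76% at 1 kb upstream and 3.70% at 1 kb downstream, but 1.35% at 2 kb upstream and 3.70% at 2 kb downstream, so its order depended on the distance. At the start itself clone A2 RAD21 at 4 h covered 20.2% and at 24 h 52.2%, clone D7 at 24 h 65.3%, STAG1 96.0% and STAG2 15.8%.

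**Figure D5:**
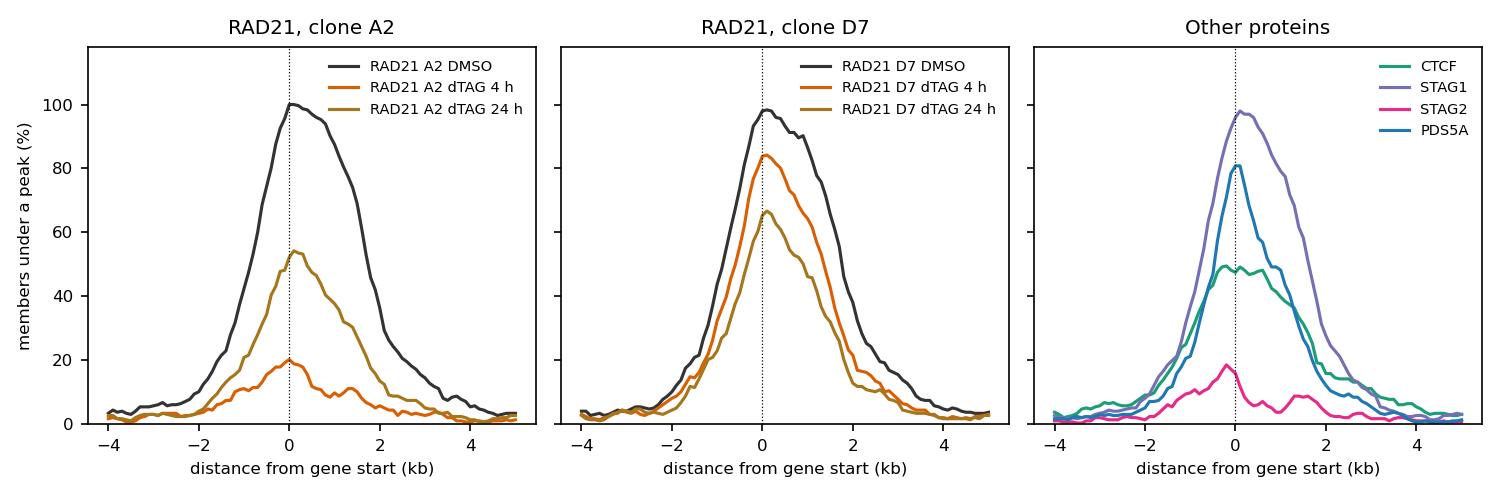
Share (%) of the 297 members with 1 gene starting inside that lie under a peak, against distance in kb from the gene start in the direction of transcription, for RAD21 in clone A2, RAD21 in clone D7 and 4 other proteins; the dotted line marks the start. The start is the most upstream listed one inside the member. From it, untreated RAD21 and STAG1 reach further downstream than upstream, and 100% at the start in clone A2 in DMSO follows from the choice of these members.

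Genes of chosen lists were checked for members. A gene counted when its body or 1 kb beyond either end held a member, which 481 of 19974 protein-coding genes did (2.41%). Of 16 genes that belong to the YAP, TGF-beta and AP-1 pathways, 7 did (43.8%): CCN1, CCN2, TEAD1, SMAD7, SMAD3, FOSL2 and JUN. Of 16 collagen and matrix genes, 3 did: COL4A1 and COL4A2, which share 1 member that holds a start of each, and THBS1. Of 16 genes of cohesin and its regulators, 2 did: STAG1 and PDS5A. None of 13 genes of the homeobox clusters and none of 10 genes of the retinal pigment epithelium did. The lists were chosen with results of these data known, and longer genes can hold a member more often, so the counts describe and test nothing.

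In the YAP, TGF-beta and AP-1 list, JUN and FOSL2 encode AP-1 subunits, TEAD1 the DNA-binding partner of YAP, CCN1 and CCN2 secreted matricellular proteins, SMAD3 a signal transducer of TGF-beta and SMAD7 its inhibitor. FOSL2 (chr2:28389822-28395046) was 5225 bp, absent and 390 bp wide in clone A2, in the order DMSO, 4 h and 24 h, and 5657 bp, 2160 bp and absent in clone D7. JUN (chr1:58781605-58786176) was 4572, 678 and 2224 bp in clone A2 and 4564, 2393 and 1303 bp in clone D7. Every treated peak called at these 2 genes was narrower than that of its clone in DMSO. SMAD3 (chr15:67064967-67067614) was 2648 bp, absent and 1216 bp in clone A2, and 2916, 2514 and 381 bp in clone D7. TEAD1 (chr11:12673567-12676694), which held no CTCF peak, was 3128 bp, absent and 1096 bp in clone A2, and 2799, 1876 and 800 bp in clone D7. CCN1 (chr1:85580455-85583211) was 2757 bp, absent and 1010 bp in clone A2, and 2153, 1063 and 1189 bp in clone D7. CCN2 (chr6:131949581-131951610) differed, with 2030, 679 and 2388 bp in clone A2 and 2424, 2435 and 1385 bp in clone D7, so its peak was narrower than in DMSO at 4 h in clone A2 and at 24 h in clone D7. At 4 h in clone A2, 5 of the 7 had no peak, as had 200 of all 500 members and 31.2% of all shared peaks.

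COL4A1 and COL4A2 encode chains of basement-membrane collagen and are transcribed away from each other. Their shared member (chr13:110306712-110309166) was 2455 bp, absent and 1191 bp in clone A2, and 2633, 2203 and 1408 bp in clone D7. THBS1, which encodes thrombospondin-1 (chr15:39578935-39582540), was 3606, 1009 and 2869 bp in clone A2 and 3879, 2861 and 2377 bp in clone D7. The genes of 2 of the measured proteins held members themselves. STAG1 (chr3:136751428-136753438) was 2011, 620 and 1970 bp in clone A2 and 2223, 1850 and 2088 bp in clone D7, with a ratio of 0.939 at 24 h in clone D7. PDS5A (chr4:39976167-39978363) was 2197, 575 and 719 bp in clone A2 and 2164, 1939 and 913 bp in clone D7. Both held 1 CTCF peak, of 1956 bp at STAG1 and 2396 bp at PDS5A, which is nearly the width of the member or more.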

How the data were processed

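Chromatin immunoprecipitation was done in 12 libraries with 1 peak list each. The submitters' processing notes name BWA, Picard, SAMtools, bedtools, deepTools and MACS2, without versions, and the builds hg38 and mm10. The authors deposited narrowPeak lists, 1 per immunoprecipitation with no pooling, with a q threshold in their names of 0.001 for CTCF and 0.01 for the rest. The signal column is the fold of the summit over local background, a ratio the authors deposited. The −log10 p, the −log10 q and the score are deposited too, and −log10 q was used for 1 alternative. The peak's start, end and summit gave width and overlap (1 bp or more). Per the labels' protocols, RAD21 and PDS5A libraries carried about 10% NIH/3T3 chromatin, which was not used here, CTCF used size selection and a different library kit, and HA chromatin was fixed with an additional crosslinker. Read totals are not given in the sources used here. Fold and −log10 p under a Poisson model gave each library's background pileup, except HA, whose depth is unknown.

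The members, gene lists and comparisons were chosen with earlier results of these data known. Named regions follow a rule: the 5 widest; the 3 with most CTCF peaks; the 3 widest with none; up to 5 widest absent from all 4 dTAGV-1 lists; the 3 lowest and 3 highest clone D7 24 h ratios; those at the width threshold; and gene list members. Genes are from RefSeq GRCh38.p14. The planned motif search over whole members was not run and was replaced by RefSeq promoter windows, which do not cover every gene. Computing used Python 3.11.15, NumPy 2.4.6, pandas 2.3.3, SciPy 1.17.1 and matplotlib 3.10.9, and the overlap, interval and pileup steps were tested on simulated data.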

Additional observations from a re-analysis of the deposited data

Results flagged for a closer look

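For RAD21 peaks inside members, clone A2 and clone D7 changed with opposite sign in 3 measures, each with 1 library per clone and time, and these differences were not tested. The number of RAD21 peaks inside members at 4 h of dTAGV-1 differed from DMSO by -137 in clone A2 (363 against 500) and by 75 in clone D7 (635 against 560). Each member is 1 clone A2 peak in DMSO by its choice, so the count of 500 was fixed, while that of clone D7 was not. The opposite signs of this count therefore cannot show a difference between the clones. The share of these peaks that overlapped CTCF at 4 h differed from DMSO by 2.84 points in clone A2 (92.8% against 90%) and by -2.28 points in clone D7 (82.4% against 84.6%). At 24 h it differed by -3.88 points in clone A2 (86.1%) and by 1.6 points in clone D7 (86.2%). The clone A2 share in DMSO was taken over the chosen peaks themselves, so the signs of the shares are not like for like either.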

How the results depend on the processing

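For 20 results, 175 values under alternatives were computed: 114 stayed within the 95% interval of the reported value, 61 moved beyond it and 0 reversed. Only a width ratio that crossed 1 could be called reversed, so for shares the label did not apply. Keeping only peaks of the other lists with −log10 q at or above 10 gave a clone D7 24 h ratio of 0.610 and a share narrower of 54.4%; HA overlapped 2.4% of members, PDS5A 79.0%, STAG1 97.8% and STAG2 46.6%, and a peak was present in 50.4% and 71.2% (clone A2, 4 h and 24 h) and 84.0% and 73.6% (clone D7). With the 250 widest peaks, the clone D7 ratios were 0.669 and 0.439, the shares narrower 49.8% and 69.3%, and 46.0% held 2 or more CTCF peaks, 96.4% PDS5A and 100% STAG1. With the 1000 widest these were 0.845, 0.637, 34.3%, 52.5%, 19.3% and 90.9% (PDS5A), and HA was 4.6%. Chosen from clone D7 instead, the ratios were 0.631 and 0.422, the shares narrower 53.4% and 74.0%, and 35.8% held 2 or more CTCF peaks. With summed widths the 24 h ratio was 0.620 and the shares narrower 34.4% and 54.8%; at 2-fold the shares were 25.6% and 46.5%. With CTCF peaks at or above their median fold, 58.8% held CTCF and 5.0% held 2 or more. With the STAG1 summit required inside the member, its share was 98.6%. With gene ends within 2.5 kb, 73.8% of members and 21.1% of other peaks were near one. In the window around the summit, chosen after seeing the data, CTCF was 85.0%, 2 or more CTCF peaks 1.0%, PDS5A 89.4%, STAG1 98.0%, and presence at 24 h 81.4% (A2) and 88.8% (D7). The order of members and other peaks turned in 11 values: 4 for CTCF, 1 for STAG2, 2 for WAPL and the 4 clone D7 width values among peaks 2000 to 3000 bp wide there in DMSO, also chosen after seeing the data (ratios of 0.791 for members and 0.621 for other peaks at 4 h, 0.564 and 0.422 at 24 h). The cause was not tested. Treated and DMSO libraries were compared within each clone; a model with clone as a block was not fitted, and no replicate was left out, as each group held 1 library. Motifs over whole members were not run.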
